A study of Mus musculus with 3 samples.

Results

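The 10 genes described here are Jchain, Mzb1, Slpi, Ly6a, Cd52, B2m, Cd74, H2-Aa, Cd79a and Lyz2, all known for expression in cells of the immune system. They were taken by symbol from the 22843 gene rows of a mouse testis single-cell data set and read over all of its 5023 cells. They were listed because immune cell RNA had already been seen among the sorted germ cells, so they were selected on the differences in level between these libraries. Their levels are therefore a description and carry no test.

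The study addressed the role of Gm4665, a long non-coding RNA gene, in sperm formation. ICR mice, aged 21 days before the injection, received AAV9-shRNA-RFP in one testis and AAV9-shCtrl-RFP in the other, with RFP, a red fluorescent protein, as the mark of infected cells. The 3 groups were hairpin 1 against Gm4665, hairpin 2 against Gm4665 and the control hairpin shCtrl, with 3 mice per condition and 1 library per group. Somatic cells were removed and RFP-positive germ cells were sorted before droplet capture with a 10x Genomics 3' kit. The sources used here do not give the promoters that drive the hairpin and RFP, or say whether the mice of a condition were pooled. With 1 library per group, the hairpin, the mice, the injection and the sort cannot be told apart.

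Immune RNA has a limited set of known sources. Jchain and Mzb1 serve antibody assembly in antibody-secreting cells, Cd79a is a signalling chain of the B cell receptor, Cd74 and H2-Aa belong to class II antigen presentation, and Lyz2 is a lysozyme of macrophages and granulocytes. The testis holds resident macrophages outside the tubules, while most germ cells lie behind the barrier formed by Sertoli cells. In droplet methods, RNA freed from broken cells is known to be captured together with any cell.

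The libraries held 1732 cells with hairpin 1, 1873 with hairpin 2 and 1418 in the control, with medians of 14667.5, 16518 and 19366 unique molecular identifiers (UMIs, one per captured RNA molecule) per cell. Levels are UMIs summed over cells per 1000000 UMIs (CPM). Ranges in brackets are 95% intervals, from exact Poisson limits for levels, exact binomial limits for ratios and Clopper-Pearson limits for shares. They cover counting error only. Gm4665 itself was at 52.8 CPM with hairpin 1, 79.1 CPM with hairpin 2 and 311 CPM in the control, in the direction of the labels. In all, 18 cell barcodes occurred in more than 1 library, and 1 of those cells was leukocyte-like.

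Cells were clustered without the 10 genes, and clusters were named from markers of other genes. Of 18 clusters, 13 were germ cell clusters, covering 89.0% of cells with hairpin 1, 82.7% with hairpin 2 and 87.6% in the control. Clusters 12, 13 and 16 were leukocyte-like. Cluster 12 raised 14 of 14 markers of antibody-secreting cells and was led by Slpi, Jchain, Mzb1, Txndc5 and Cd69. That list named 24 markers, and its immunoglobulin genes were not among the gene rows. Cluster 13 raised 10 of 11 markers of B cells and was led by Ms4a1, Ebf1, Plac8, Laptm5 and H2-Eb1. Cluster 16 raised 15 of 16 markers of macrophages and was led by Lyz2, Ccl8, C1qa, Cxcl2 and C1qc. Each also raised a second list: B cells for cluster 12 (9 of 11 markers), and dendritic cells for clusters 13 (5 of 6) and 16 (8 of 9). With 1 library per group, a cluster that comes mostly from some libraries may be of those libraries rather than a cell type. Clusters 7 and 14 carried markers of Sertoli or mesenchymal cells together with germ cell markers and were kept apart as mixed. That rule was set after the data had been seen. Cluster 7 held 4.27%, 5.87% and 10.3% of the hairpin 1, hairpin 2 and control cells, and cluster 14 held 1.39%, 1.87% and 0.776%.

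In the GENCODE annotation of mm10 all 10 genes are protein coding. Jchain lies on chromosome 5 (88519809 to 88527891, minus strand), Mzb1 on 18 (35647267 to 35649367, minus), Slpi on 2 (164354070 to 164389095, minus), Ly6a on 15 (74994877 to 74998031, minus) and Cd52 on 4 (134082448 to 134095082, minus). B2m lies on chromosome 2 (122147686 to 122153083, plus strand), Cd74 on 18 (60803848 to 60812652, plus), H2-Aa on 17 (34282744 to 34287823, minus), Cd79a on 7 (24897381 to 24902197, plus) and Lyz2 on 10 (117277331 to 117282321, minus). Exons of Cd52 overlap those of Crybg2 on the opposite strand, and the strand used in counting is not known here.

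The start regions of 3 of the genes are shown because these genes stand for the joining chain, the class I and the class II groups. Each was high over all leukocyte-like cells, but Jchain and H2-Aa had their highest levels in different clusters of them (12 and 16). The stretches are the 250 bases before the RefSeq gene start (GRCm38.p6, the mm10 build), written 5′ to 3′ on the strand of the gene. They lie at chr5:88527898-88528147 (minus strand), chr2:122147437-122147686 (plus strand) and chr17:34287824-34288073 (minus strand), and capitals mark matches to the motifs searched.
Jchain: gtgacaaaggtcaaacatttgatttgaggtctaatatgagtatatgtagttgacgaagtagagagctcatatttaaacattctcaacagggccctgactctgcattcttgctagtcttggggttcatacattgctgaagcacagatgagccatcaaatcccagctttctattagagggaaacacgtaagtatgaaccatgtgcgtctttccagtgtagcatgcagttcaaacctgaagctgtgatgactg
B2m: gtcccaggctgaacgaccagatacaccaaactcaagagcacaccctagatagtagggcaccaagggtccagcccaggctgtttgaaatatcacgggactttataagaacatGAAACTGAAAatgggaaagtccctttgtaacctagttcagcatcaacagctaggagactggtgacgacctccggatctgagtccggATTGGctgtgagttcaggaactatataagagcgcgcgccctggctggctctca
H2-Aa: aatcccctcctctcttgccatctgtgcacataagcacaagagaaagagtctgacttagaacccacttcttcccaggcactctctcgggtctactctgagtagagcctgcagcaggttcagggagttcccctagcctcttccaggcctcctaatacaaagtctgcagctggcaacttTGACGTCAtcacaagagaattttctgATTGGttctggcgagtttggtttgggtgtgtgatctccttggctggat

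Motifs of 4 kinds were searched on both strands: the interferon-response type (GAAA, 2 bases of any kind, GAAA), TGACGTCA (cAMP-response type, its own reverse complement), ATGCAAAT (octamer type) and CCAAT (written ATTGG where the match is on the other strand). B2m matched the interferon-response type and CCAAT, and H2-Aa matched TGACGTCA and CCAAT, with no overlap of matches. Jchain matched none. Among 32851 mouse promoter windows of the same length, 2.98% held the interferon-response type, 1.55% TGACGTCA, 1.60% ATGCAAAT and 33.8% CCAAT. A match is a description of letters, not evidence of binding.

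Over all cells, each of the 10 genes had a higher level with either hairpin than in the control. In such sums, fewer cells of a type and less RNA per cell cannot be told apart. Of the 9 genes that passed the expression filter with hairpin 1 (a mean of at least 10 CPM and at least 30 UMIs), 8 were at least 2-fold higher, among 6844 genes of which 1.65% were called higher and 1.53% lower. With hairpin 2, all 8 that passed were at least 2-fold higher, among 7081 genes of which 7.77% were called higher and 2.27% lower. Cd79a missed the filter with hairpin 1, and Slpi and Lyz2 missed it with hairpin 2. Jchain, Slpi, Ly6a, Cd79a and Lyz2 had control levels of 0.124 to 5.77 CPM. For these genes, passing the filter already required an at least 2-fold higher level, so their calls were fixed by it. For this reason, and because the genes were listed from these differences, nothing is read from the counts. The median log2 fold of all genes tested was 0.22 with hairpin 1 and 0.25 with hairpin 2.

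Jchain, the joining chain of polymeric IgM and IgA, had the largest fold of CPM + 1 among all genes tested in either comparison. It was at 520.7 CPM (513.5 to 528.0) with hairpin 1, 924.9 CPM (916.0 to 933.9) with hairpin 2 and 5.77 CPM (5.05 to 6.56) in the control. Its ratio to the control was 90.3 (79.4 to 103.2) with hairpin 1. For hairpin 2 the ratio was 160.4 (141.0 to 183.2). In the control, a single cell held 175 of the 233 UMIs, and without the top cell of each library the ratios were 332.8 with hairpin 1 and 605.8 with hairpin 2.

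Mzb1, an endoplasmic reticulum chaperone of antibody assembly, had 74.2 CPM with hairpin 1, 158.2 CPM with hairpin 2 and 8.74 CPM in the control. Cd79a was at 9.91 CPM with hairpin 1, 24.2 CPM with hairpin 2 and 4.03 CPM in the control. Both genes of the antibody and B cell line were thus highest with hairpin 2.

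The class II genes stood closer to the control than Jchain and Mzb1 did. Cd74, the invariant chain that guides class II molecules, was at 315.9 CPM with hairpin 1, 477.1 CPM with hairpin 2 and 130.4 CPM in the control. H2-Aa, the alpha chain of a class II molecule, was at 117.3 CPM with hairpin 1, 206.1 CPM with hairpin 2 and 60.9 CPM in the control. H2-Aa had the lowest hairpin 1 ratio of the 10 genes, 1.93 (1.83 to 2.02), and its hairpin 2 ratio was 3.38 (3.24 to 3.54).

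B2m, the light chain of class I molecules, was at 173.6 CPM with hairpin 1, 245.3 CPM with hairpin 2 and 43.0 CPM in the control. The membrane-anchored antigens Ly6a and Cd52 followed the same order: Ly6a had 26.6 CPM with hairpin 1, 46.8 CPM with hairpin 2 and 4.58 CPM in the control. Cd52 had 51.7 CPM with hairpin 1, 157.0 CPM with hairpin 2 and 12.7 CPM in the control.

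Slpi and Lyz2 had the opposite order between the hairpins. Slpi, a secreted inhibitor of leukocyte proteases, was at 77.3 CPM with hairpin 1, 11.5 CPM with hairpin 2 and 0.124 CPM in the control, where it rested on 5 UMIs. The plain ratio of Slpi, 624.9 with hairpin 1 and 93.0 with hairpin 2, therefore had wide intervals (267.5 to 1926.0 and 39.6 to 287.8). Lyz2 was at 42.6 CPM with hairpin 1, 9.18 CPM with hairpin 2 and 3.84 CPM in the control. The hairpin 2 value of Lyz2 rested on 1 cell with 270 of 410 UMIs. With the top cell of each library left out, Lyz2 was at 35.3, 3.14 and 2.20 CPM in the hairpin 1, hairpin 2 and control libraries, which gave a hairpin 2 ratio of 1.42 in place of 2.39.

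**Figure D1:**
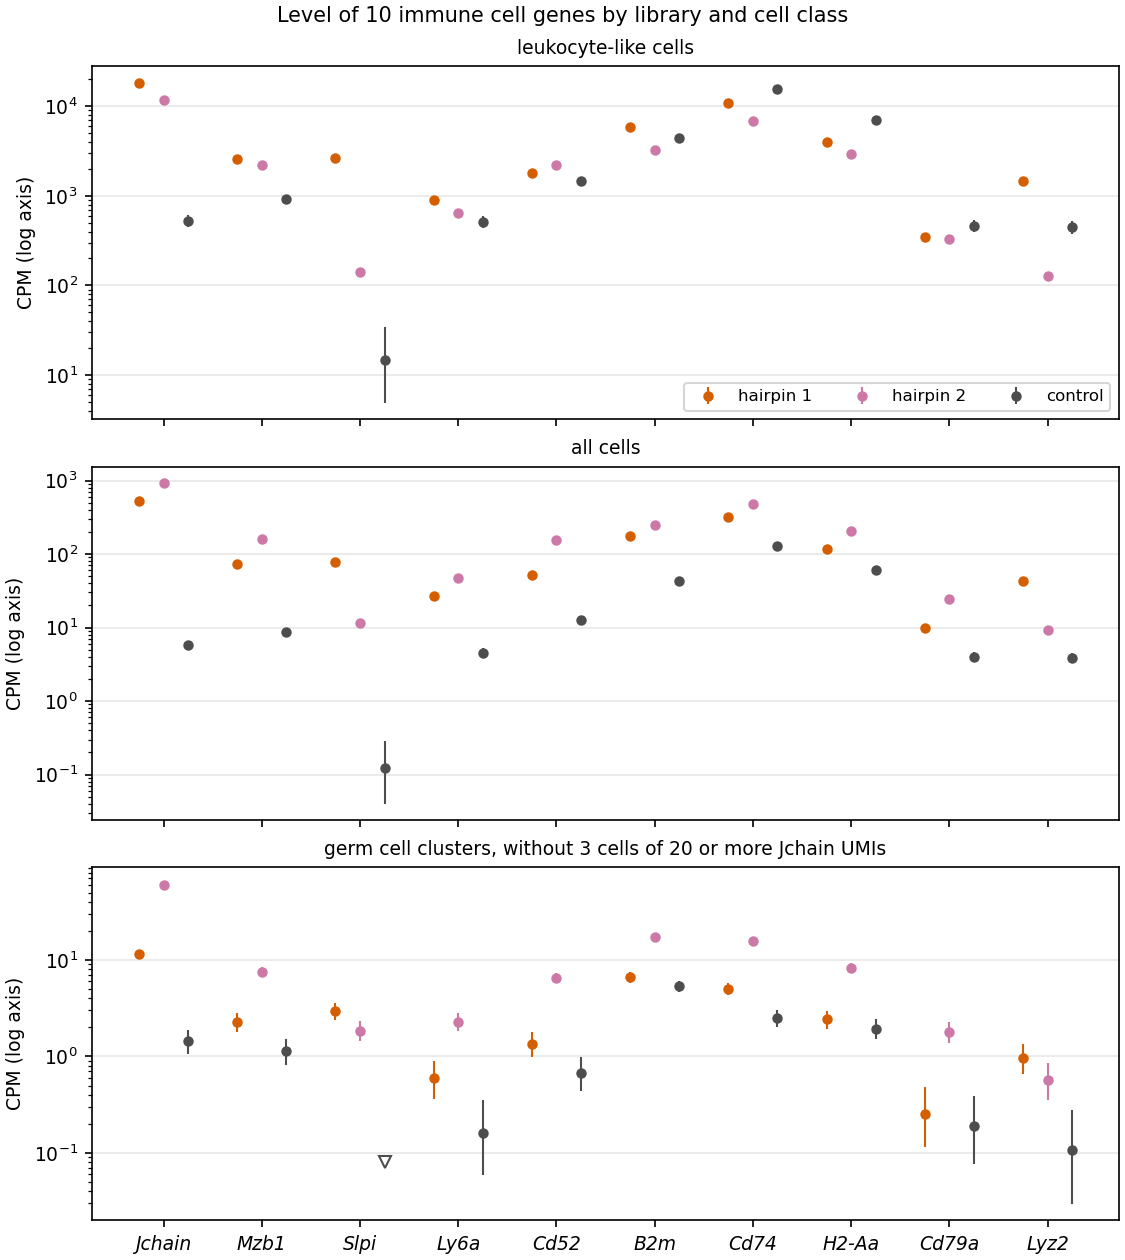
Level of each gene in CPM on a log axis in leukocyte-like cells, all cells and germ cell clusters, for the hairpin 1, hairpin 2 and control libraries. Points are library values with 95% Poisson intervals, and the open triangle marks 3 UMIs where the control germ cells had no Slpi UMI. Over all cells every control point is the lowest of its gene, while in leukocyte-like cells the control is highest for Cd74, H2-Aa and Cd79a.

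Nearly all of this RNA lay in few cells. Leukocyte-like cells numbered 92 with hairpin 1 (5.31% of cells, 4.30 to 6.47), 179 with hairpin 2 (9.56%, 8.26 to 11) and 19 in the control (1.34%, 0.809 to 2.08). They gave 2.79%, 6.72% and 0.830% of the UMIs of the hairpin 1, hairpin 2 and control libraries. They held between 94.2% (B2m) and 97.9% (Jchain) of the UMIs of each listed gene with hairpin 1, and between 83.5% (Slpi) and 95.8% (Cd74) with hairpin 2. In the control they held between 76.0% (Jchain) and 100% (Slpi). The cells were sorted as germ cells, so these shares also depend on the gate and on the removal of somatic cells.

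Single cells could dominate a gene. It took 9 cells with hairpin 1, 18 with hairpin 2 and 1 in the control to reach 50% of the Jchain UMIs. For Slpi it took 4 cells with hairpin 1 and 9 with hairpin 2. B2m was the most evenly spread, with 26, 61 and 8 cells in the hairpin 1, hairpin 2 and control libraries.

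Antibody-secreting-like cells (cluster 12) were the main holders of Jchain, Mzb1 and Slpi. They numbered 42 with hairpin 1, 99 with hairpin 2 and 3 in the control. Within them Jchain reached 34175 CPM with hairpin 1, 18144 CPM with hairpin 2 and 1820 CPM in the control, and the richest cell devoted 20.9% of its UMIs to it with hairpin 1, 27.5% with hairpin 2 and 1.09% in the control. Only 1 of the 3 control cells had 20 or more Jchain UMIs, so the control value rests on that cell.

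Slpi in cluster 12 was at 5034 CPM with hairpin 1, 195.0 CPM with hairpin 2 and 30.8 CPM (6.36 to 90.2) in the control. Mzb1 there was at 4702 CPM with hairpin 1, 3133 CPM with hairpin 2 and 2334 CPM in the control. Slpi had a UMI in 30 of 42 cluster 12 cells with hairpin 1 and in 33 of 99 with hairpin 2. Lyz2 had a UMI in 2 cluster 12 cells of each of these libraries.

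B-cell-like cells (cluster 13) numbered 17 with hairpin 1, 62 with hairpin 2 and 11 in the control. Cd52 in them was at 2668 CPM with hairpin 1, 3818 CPM with hairpin 2 and 1412 CPM in the control. Cd79a summed to 443.8 CPM with hairpin 1, 477.6 CPM with hairpin 2 and 757.9 CPM in the control. The median B-cell-like cell was at 500.6 CPM with hairpin 1, 428.6 CPM with hairpin 2 and 476.0 CPM in the control, so the higher control sum does not appear in its median cell. The highest of the 11 control cells reached 1912 CPM. No Lyz2 UMI was found in cluster 13 of any library.

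Macrophage-like cells (cluster 16) numbered 33 with hairpin 1, 18 with hairpin 2 and 5 in the control. They carried the highest class II levels, with Cd74 at 21431 CPM with hairpin 1, 17818 CPM with hairpin 2 and 31315 CPM in the control. H2-Aa was at 9599 CPM with hairpin 1, 9918 CPM with hairpin 2 and 15651 CPM in the control. Lyz2 was at 4923 CPM with hairpin 1, 1635 CPM with hairpin 2 and 2012 CPM in the control. With hairpin 2, 1 of the 18 cells held 270 of the 381 Lyz2 UMIs. The median cell was at 3770 CPM with hairpin 1, 27.2 CPM with hairpin 2 and 1449 CPM in the control. Macrophage-like cells held 95%, 92.9% and 96.8% of all Lyz2 UMIs in the hairpin 1, hairpin 2 and control libraries. Lyz2 had a UMI in 26 of these 33 cells with hairpin 1, 9 of 18 with hairpin 2 and 4 of 5 in the control. The macrophage list summed to 3865, 723.5 and 1559 CPM over all leukocyte-like cells of the same libraries. The name was given over all libraries together and may describe the hairpin 2 and control cells less well.

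**Figure D2:**
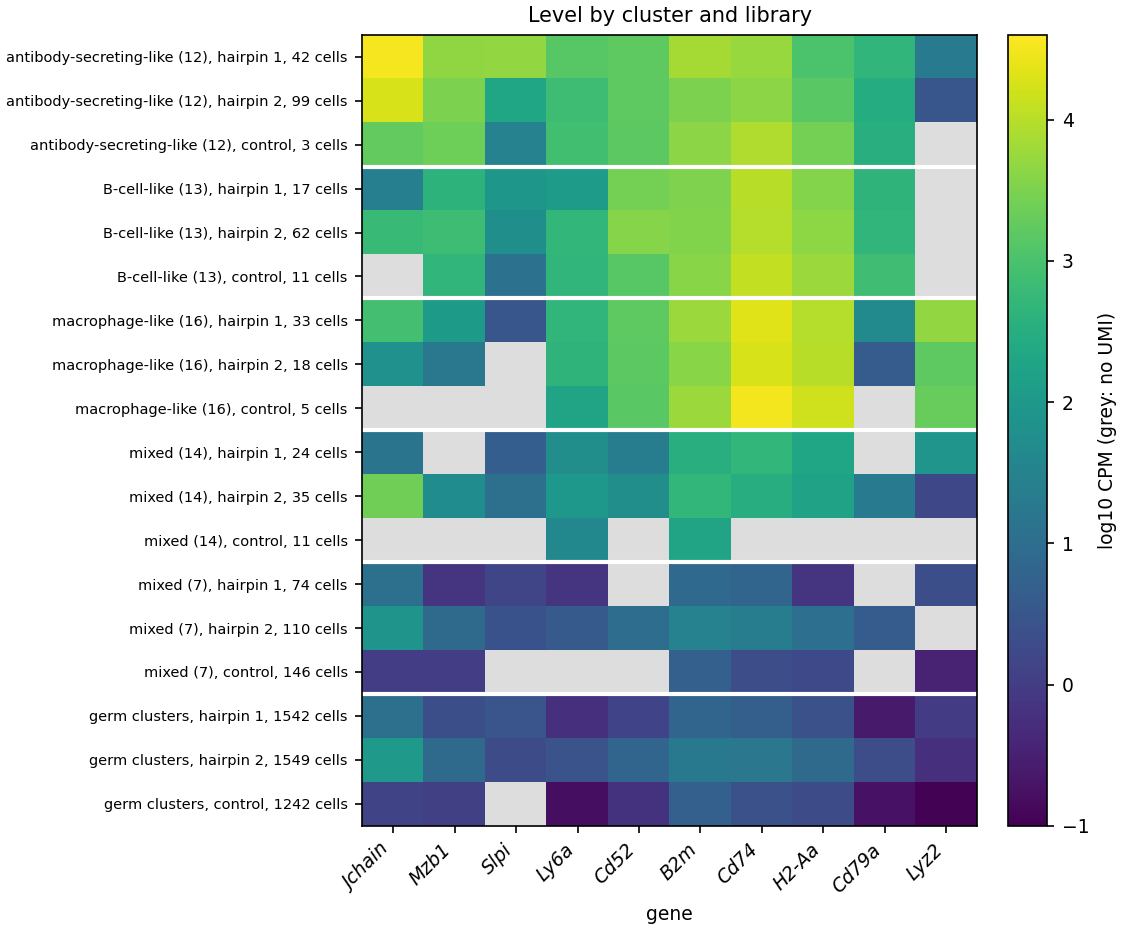
Log10 CPM of the 10 genes (columns) in the leukocyte-like, mixed and germ cell clusters of each library (rows, with cell numbers), grey where there was no UMI. Jchain is highest in cluster 12, Lyz2 in cluster 16 and Cd74 in all 3 leukocyte-like clusters. The bright Jchain field of mixed cluster 14 with hairpin 2 comes from 1 cell with 1440 of 1473 UMIs. The germ field of Jchain with hairpin 2 also keeps cells of 20 or more Jchain UMIs, at 104.1 CPM against 60.1 CPM without them.

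Over all leukocyte-like cells, the class II genes and Cd79a had lower levels with either hairpin than in the control, although they were higher over all cells. Cd74 was at 10938 CPM with hairpin 1, 6808 CPM with hairpin 2 and 15416 CPM in the control, ratios of 0.710 (0.687 to 0.733) and 0.442 (0.428 to 0.455). For H2-Aa the ratio was 0.568 (0.540 to 0.597) with hairpin 1, and 0.410 (0.392 to 0.429) was the hairpin 2 ratio. Cluster 12 was the largest leukocyte-like cluster with either hairpin, with 42 of 92 cells with hairpin 1 and 99 of 179 with hairpin 2, against 3 of 19 in the control, where cluster 13 was the largest with 11. Within clusters 12, 13 and 16 alike, Cd74 and H2-Aa were also lower with either hairpin. With hairpin 1, hairpin 2 and in the control, Cd74 was at 5454, 4256 and 8391 CPM in cluster 12. In cluster 13 it was at 9805, 9659 and 12346 CPM. Cd79a in cluster 12 was at 480.8, 299.9 and 329.1 CPM, without this order. The part of the cluster mix in these ratios was not tested. Over all leukocyte-like cells Jchain, in contrast, had ratios of 34.6 (29.8 to 40.3) with hairpin 1 and 22.5 (19.4 to 26.2) with hairpin 2.

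In germ cell clusters all 10 genes were at low levels, and most were highest with hairpin 2. There, 3 cells of the hairpin 2 library held 363, 203 and 1143 Jchain UMIs, with 7, 13 and 8 UMIs of pan-leukocyte markers, and the doublet caller, which is taken not to have worked, marked none of them. Germ cell levels and ratios of the 10 genes are therefore given in the text without cells of 20 or more Jchain UMIs. That limit was chosen after the data had been seen. All germ cells were kept for the 2-fold calls, the percent of cells with a Jchain UMI, and the levels of other genes and lists. Without the cells of 20 or more UMIs, Jchain was at 11.4 CPM (10.3 to 12.5) with hairpin 1 and 60.1 CPM (57.7 to 62.6) with hairpin 2. It was at 1.43 CPM (1.07 to 1.87) in the control. With those 3 cells the hairpin 2 value was 104.1 CPM. The ratio to the control was 7.93 (5.94 to 10.8) with hairpin 1 and 41.9 (31.9 to 56.2) with hairpin 2.

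None of the 10 genes passed the filter in germ cells with hairpin 1, where 1.17% of 6811 genes were called higher and 1.54% lower. With hairpin 2, Jchain and B2m passed and both were called, with all cells of the clusters kept. There, 4.45% of 7007 genes were called higher and 2.07% lower. At control levels of 1.43 and 5.32 CPM, a mean of 10 CPM already required a more than 2-fold higher level. These calls were therefore fixed by the filter, and nothing is read from them. The median log2 fold of all genes in germ cells was 0.19 with hairpin 1 and 0.26 with hairpin 2.

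B2m in germ cells was at 6.62 CPM (5.80 to 7.53) with hairpin 1, 17.3 CPM (16 to 18.7) with hairpin 2 and 5.32 CPM (4.61 to 6.12) in the control. Its ratio to the control was 1.24 (1.03 to 1.51) with hairpin 1 and 3.25 (2.77 to 3.83) with hairpin 2. Cd74 in germ cells was at 5.05 CPM (4.33 to 5.84) with hairpin 1, 15.7 CPM (14.5 to 17.0) with hairpin 2 and 2.49 CPM (2.0 to 3.05) in the control. The ratio of Cd74 was 2.03 (1.57 to 2.64) with hairpin 1 and 6.33 (5.08 to 7.97) with hairpin 2. Both counting intervals lay above equality, which is no test for a gene listed for such differences.

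H2-Aa in germ cells was at 2.42 CPM (1.94 to 2.99) with hairpin 1, 8.30 CPM (7.41 to 9.26) with hairpin 2 and 1.92 CPM (1.5 to 2.42) in the control. Cd79a rested on 9 UMIs with hairpin 1, 69 with hairpin 2 and 7 in the control. For both genes the interval of the hairpin 1 ratio included equality (0.912 to 1.75 for H2-Aa and 0.444 to 4.24 for Cd79a), so no difference was detectable at this depth.

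Slpi had 104 germ cell UMIs with hairpin 1, 71 with hairpin 2 and 0 in the control, where 3 UMIs, the limit that a count of 0 allows, stand for 0.0811 CPM. Against that limit it was at least 36.2-fold higher with hairpin 1 and at least 22.6-fold higher with hairpin 2. The lower limits of the exact binomial intervals of these ratios were 28.9 and 17.9. Lyz2 had 34 germ cell UMIs with hairpin 1, 22 with hairpin 2 and 4 in the control. These were the genes with more germ cell UMIs with hairpin 1, as they also were over all cells.

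Mzb1, Cd52 and Ly6a in germ cells were at 2.26, 1.35 and 0.592 CPM with hairpin 1, at 7.55, 6.49 and 2.30 CPM with hairpin 2, and at 1.14, 0.676 and 0.162 CPM in the control. The counting interval of the ratio lay above equality for all 3 in both comparisons. This is no test, since the genes were listed for such differences and each group was 1 library. Ly6a rested on 6 UMIs in the control, and its hairpin 1 log2 fold was -0.06 after thinning to 10000 UMIs per cell. Mzb1 exons overlap exons annotated as SPATA24 on the same strand, with 696 shared transcript bases, and reads of the pair cannot be told apart. Lyz2 shares 95.8% of 1264 bases with Lyz1 and Ly6a 96.6% of 263 with Ly6c1, so their levels are uncertain to that extent, as is that of Cd79a, which shares 98.7% of 298 bases with Gm32220.

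Set against the leukocyte-like cells of the same library, the germ cell level was a small fraction for each gene. With hairpin 1 it was between 0.0461% (Cd74) and 0.113% (B2m) of the leukocyte-like level. With hairpin 2 it was between 0.231% (Cd74) and 1.28% (Slpi), higher than with hairpin 1 for each of the 10 genes. In the control it ran from 0 (Slpi) to 0.271% (Jchain), with Cd74 at 0.0161%. The control, with its 19 leukocyte-like cells, had fractions above those with hairpin 1 for Jchain, Mzb1 and B2m.

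**Figure D3:**
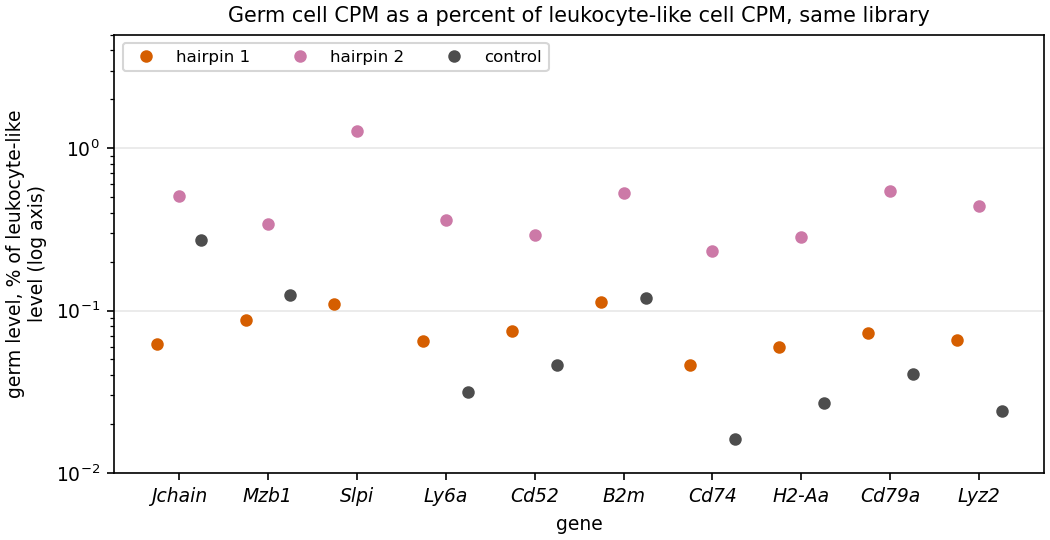
Germ cell CPM as a percent of leukocyte-like CPM in the same library, for each gene on a log axis, without cells of 20 or more Jchain UMIs in the germ clusters. Every hairpin 2 point lies above the hairpin 1 point of its gene, and Slpi in the control is at 0 and not drawn.

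The mix of the 10 genes in germ cells was set beside that of leukocyte-like cells of the same library. With hairpin 1, Jchain made up 33.6% (30.9 to 36.4) of the UMIs of the set in germ cells and 37.4% (36.9 to 37.8) in leukocyte-like cells. Cd52 (4.0% in germ cells and 3.68% in leukocyte-like cells), Ly6a (1.75% and 1.86%) and Lyz2 (2.84% and 2.99%) had leukocyte-like shares inside the germ cell intervals. B2m took 19.6% (17.4 to 22.0) in germ cells and 12% (11.7 to 12.3) in leukocyte-like cells, and Cd74 took 14.9% (13 to 17.1) and 22.4% (22.0 to 22.8).

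With hairpin 2 the germ cell mix was closer to cluster 12 than to all leukocyte-like cells for Jchain, Slpi, Cd52, Cd74 and H2-Aa. For Mzb1, Ly6a, B2m, Cd79a and Lyz2 it was closer to all leukocyte-like cells. B2m took 14.2% in germ cells, 10.8% in leukocyte-like cells and 9.45% in cluster 12. Jchain took 49.3% (47.8 to 50.7) in germ cells, 38.8% in leukocyte-like cells and 55.1% in cluster 12. Cd74 took 12.9% (12 to 13.9) in germ cells, 22.3% in leukocyte-like cells and 12.9% in cluster 12. In the control, B2m was the largest share of the set in germ cells with 39.6% (35.3 to 44.1), against 14.2% (13.5 to 14.9) in leukocyte-like cells, where Cd74 led with 49.2%.

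Outside cluster 12, Jchain was at similar levels in germ, mixed and macrophage-like cells of a hairpin library, while B-cell-like cells with hairpin 2 were higher. Without cells of 20 or more Jchain UMIs, macrophage-like cells had 9.82 CPM (2.02 to 28.7) with hairpin 1 and 68.7 CPM (39.2 to 111.5) with hairpin 2. Macrophages are not known to make Jchain, but this cluster also raised markers of dendritic cells. Mixed cluster 7 had 11.7 CPM (6.68 to 19.0) with hairpin 1, 64.4 CPM (54.4 to 75.7) with hairpin 2 and 1.03 CPM (0.213 to 3.02) in the control. Mixed cluster 14 had 14.5 CPM (5.31 to 31.5) with hairpin 1 and 55.5 CPM (38.2 to 77.9) with hairpin 2. The germ cell values of 11.4 CPM with hairpin 1 and 60.1 CPM with hairpin 2 lay inside all of these intervals. With hairpin 1, clusters 16 and 14 rested on 3 and 6 UMIs, so their wide intervals could hardly have excluded the germ cell value. The cells compared were also cut on Jchain itself, so the likeness is a description only. The source of this RNA was not tested.

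B-cell-like cells had 26.1 CPM (8.48 to 60.9) with hairpin 1 and 155.2 CPM (129.2 to 184.9) with hairpin 2. The hairpin 2 interval lay above that of germ cells. The control had no Jchain UMI in clusters 13, 14 and 16, where the limit of 3 UMIs is far above its germ cell level. Before cells of 20 or more Jchain UMIs were left out, single cells had set some of these values: 264 of 267 UMIs in cluster 16 with hairpin 1 and 1440 of 1473 in cluster 14 with hairpin 2 lay in 1 cell each.

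**Figure D4:**
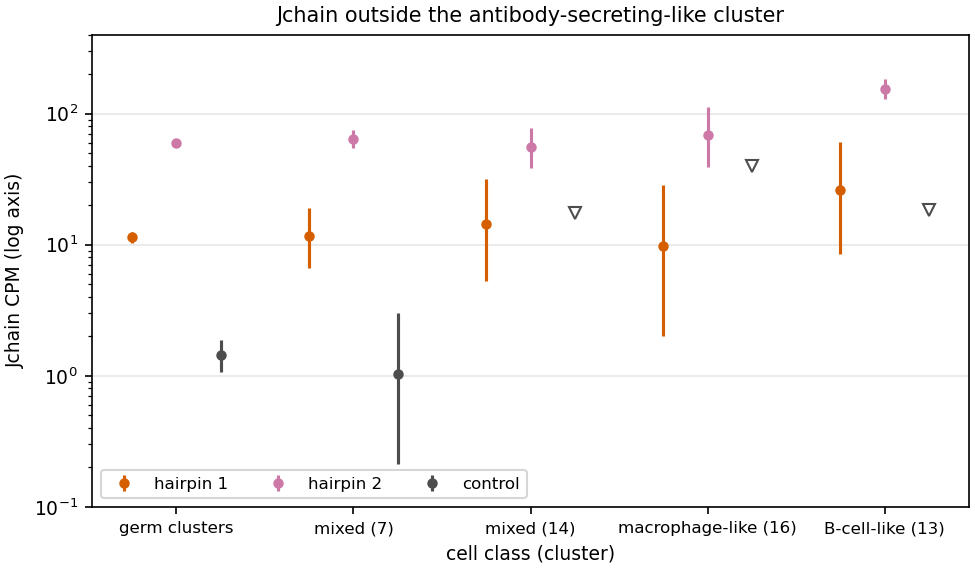
Jchain CPM on a log axis in germ, mixed, macrophage-like and B-cell-like cells of each library, without cells of 20 or more Jchain UMIs. Points carry 95% Poisson intervals and open triangles mark 3 UMIs where the control had none. Within a library the germ, mixed and macrophage-like points lie near one level, at about 11.4 CPM with hairpin 1 and 60.1 CPM with hairpin 2.

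A Jchain UMI was found in 22.0% (19.9 to 24.1) of germ cells with hairpin 1, 70.4% with hairpin 2 and 4.19% (3.14 to 5.45) in the control. Among macrophage-like cells it was found in 12.1% (3.4 to 28.2) with hairpin 1 and 55.6% (30.8 to 78.5) with hairpin 2, at median depths of 9676 and 13206 UMIs, against 15348 and 17354 UMIs in germ cells. The germ cell shares lay inside these intervals, which are wide because they rest on 33 and 18 cells. After thinning to 10000 UMIs per cell, which left out 530, 332 and 70 shallower cells of the hairpin 1, hairpin 2 and control libraries, 10.9%, 44.8% and 1.27% of germ cells held a UMI.

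Counts per germ cell were low. Without the cells of 20 or more UMIs, the highest count in a germ cell was 5 with hairpin 1, 11 with hairpin 2 and 2 in the control. The ratio of variance to mean was 1.16 with hairpin 1, 1.62 with hairpin 2 and 0.996 in the control. A value of 1 is that of independent single events in cells of equal depth. The cells differed in depth, which alone raises the ratio, and the cut at 20 Jchain UMIs lowers it with hairpin 2. Nothing is read from its distance to 1. With the 3 cells kept, the hairpin 2 ratio was 366.3.

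**Figure D5:**
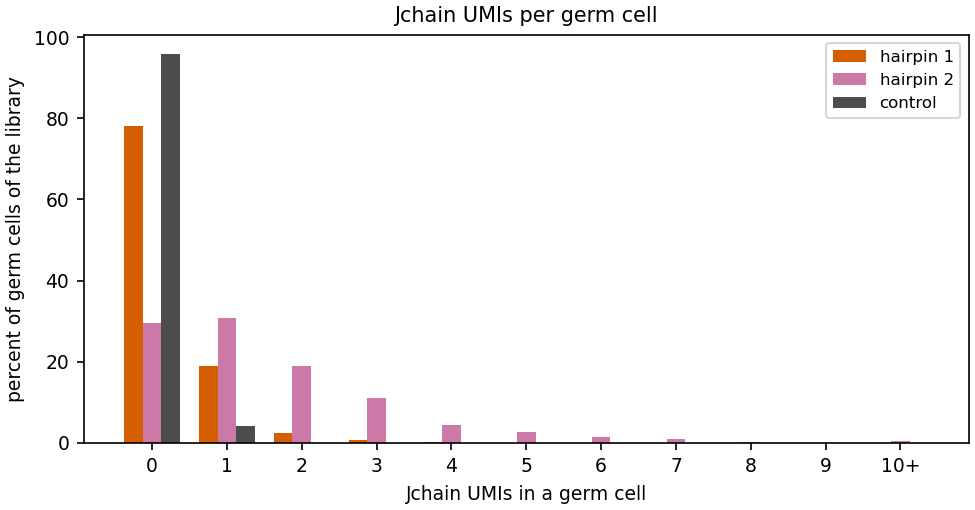
Percent of all germ cells, with none left out, by their number of Jchain UMIs, as bars for the hairpin 1, hairpin 2 and control libraries. With hairpin 2, 29.6% of germ cells had none and 30.7% had 1, while 78.0% with hairpin 1 and 95.8% in the control had none.

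Jchain counts per germ cell went with depth. In 4 equal groups of the germ cells by total UMIs, from shallow to deep, the mean count with hairpin 1 was 0.104, 0.125, 0.288 and 0.528 UMIs per cell at median depths of 7925, 11504, 21721 and 45858. As a level this was 13, 10.7, 12.6 and 10.7 CPM, with overlapping intervals. With hairpin 2 the level was 87.5 (78.2 to 97.6), 64.8, 59.7 and 54.1 CPM (50.9 to 57.4), so the shallowest cells had the highest level. In the control, the 4 groups held only 7, 4, 7 and 35 UMIs.

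Across germ cell clusters of at least 20 cells, Jchain ranged between 3.41 and 14.2 CPM in the 12 clusters with hairpin 1, between 47.3 and 80.8 CPM in the 13 with hairpin 2 and between 0 and 4.61 CPM in the 11 of the control. The hairpin 2 range lay above the others, and the lowest hairpin 1 cluster, with 1 UMI, lay inside the control range. With hairpin 1 the lowest was the spermatocyte-like cluster 15 and the highest the round-spermatid-like cluster 2. With hairpin 2 the spermatocyte-like clusters 17, 3 and 6 were the lowest (47.3, 48.8 and 54.5 CPM) and the round-spermatid-like cluster 11 was the highest, with an interval of 58.5 to 108.8 CPM. In the control the highest was the spermatogonium-like cluster 8, on 3 UMIs. Cd74 ranged between 1.92 and 7.48 CPM with hairpin 1, between 11.8 and 23.6 CPM with hairpin 2 and between 1.46 and 6.08 CPM in the control.

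B2m differed between germ cell stages. In the control it was at 27.7 CPM (16.4 to 43.7) in the spermatogonium-like cluster 8 and at 18.6 CPM (13.9 to 24.3) in the leptotene-to-zygotene-like cluster 6, against 0.992 to 7.77 CPM in the other clusters of at least 20 cells. Cluster 6 had 19.2 CPM (13 to 27.4) with hairpin 1 and 27.2 CPM (23.2 to 31.7) with hairpin 2. In cluster 8 it was at 10.5 CPM (6.10 to 16.8) with hairpin 1 and 21.5 CPM (15.5 to 29.1) with hairpin 2, neither of them above the control. Jchain in cluster 6 was at 14.1 CPM with hairpin 1, 54.5 CPM with hairpin 2 and 1.05 CPM in the control.

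Germ cell RNA was also found in leukocyte-like cells. Prm1, the main protamine RNA of late spermatids, was found in every one of the 5023 cells. Leukocyte-like cells held 12531 CPM of Prm1 with hairpin 1, 7684 CPM with hairpin 2 and 7957 CPM in the control, against 39709, 36509 and 48344 CPM in germ cells of the same libraries. The elongating spermatid marker list of 14 genes summed to 32452 CPM in leukocyte-like cells with hairpin 1, 20640 CPM with hairpin 2 and 21960 CPM in the control. Whether these counts come from free RNA, cell pairs or both was not tested.

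Other immune lists were also summed in germ cells. Of 11 pan-leukocyte markers, all had a UMI in germ cells of every library, and they summed to 27.7 CPM with hairpin 1, 45 CPM with hairpin 2 and 46.3 CPM in the control. Most of this was Srgn, a granule proteoglycan (13.7, 18.7 and 24.7 CPM with hairpin 1, hairpin 2 and in the control, against 1207, 902.9 and 1097 CPM in leukocyte-like cells), and Rac2, a small GTPase (9.19, 15 and 15.3 CPM). Laptm5, a lysosomal protein of leukocytes, was at 0.395 CPM with hairpin 1, 1.68 CPM with hairpin 2 and 0.189 CPM in the control. This order, the one of most listed genes, was shared by Coro1a, Cd53, Arhgdib, Lcp1 and Cytip. Ptprc, Srgn, Rac2, Cd48 and Cd37 did not have it.

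The macrophage list of 16 genes summed to 845.3 CPM in germ cells with hairpin 1, 721.9 CPM with hairpin 2 and 1043.9 CPM in the control. Of these sums, Aif1 alone gave 792.3, 693.9 and 1008.2 CPM. In leukocyte-like cells Aif1 was lower, at 457.8, 215.1 and 244.5 CPM in the same libraries. Ctss of this list had the opposite order, with 0.197 CPM in germ cells and 583.9 CPM in leukocyte-like cells with hairpin 1. The B cell list summed to 49.7, 46.3 and 48.2 CPM in germ cells of the hairpin 1, hairpin 2 and control libraries. Most of this came from Fcmr, an IgM receptor gene (45, 37.3 and 41.6 CPM). Fcmr was lower in leukocyte-like cells of each library, with 6.54 CPM for hairpin 1 and 11.9 CPM in the control. The germ cell sums of both lists thus rest mostly on genes that were higher in germ cells than in leukocyte-like cells. The source of their RNA was not tested. Cd79b, the partner chain of Cd79a, had 2 germ cell UMIs with hairpin 1, 13 with hairpin 2 and 0 in the control.

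Of the other genes of class II presentation (11 in the list), 4 passed the filter over all cells with hairpin 1, of which 1 was at least 2-fold higher and 1 lower, and 3 passed with hairpin 2, all higher. Over all genes tested, 1.65% were called higher and 1.53% lower with hairpin 1, and 7.77% higher and 2.27% lower with hairpin 2, which is the background for the lists that follow too. The median log2 fold of the class II genes that passed was 0.66 with hairpin 1 and 1.48 with hairpin 2, beside 0.22 and 0.25 over all genes. H2-Eb1, a class II beta chain, was the one lower with hairpin 1, at 3.81 CPM against 90.4 CPM with hairpin 2 and 26.0 CPM in the control. In leukocyte-like cells it was at 113.0 CPM with hairpin 1, 1259 CPM with hairpin 2 and 2847 CPM in the control. H2-Ab1, the beta chain that pairs with H2-Aa, was at 8.15 CPM in germ cells with hairpin 1, 39.9 CPM with hairpin 2 and 20.5 CPM in the control, so its germ cell level with hairpin 1 was below the control.

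Of 15 class I genes, 8 passed with hairpin 1 (3 higher, 1 lower) and 9 with hairpin 2 (4 higher, 1 lower), with median log2 folds of 0.54 and 0.78. Over all genes 1.65% were called higher with hairpin 1 and 7.77% with hairpin 2. H2-D1, a class I heavy chain, had 127.0 CPM over all cells with hairpin 1, 183.2 CPM with hairpin 2 and 34.8 CPM in the control. In germ cells it had 8.94 CPM with hairpin 1, 21.5 CPM with hairpin 2 and 9.38 CPM in the control.

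Of 17 genes of antibody assembly and secretion, 13 passed with hairpin 1 (1 higher) and 15 with hairpin 2 (7 higher), with median log2 folds of 0.50 and 0.97, beside 1.65% and 7.77% called higher and medians of 0.22 and 0.25 over all genes. In germ cells 12 genes of this list passed with hairpin 1 and 13 with hairpin 2, and none was at least 2-fold higher. Over all genes in germ cells 1.17% were called higher with hairpin 1 and 4.45% with hairpin 2. At these shares nothing is read from the absence of calls. Creld2, a secretory chaperone, was at 217.8 CPM in germ cells with hairpin 1, 229.8 CPM with hairpin 2 and 179.3 CPM in the control. None of the 12 immunoglobulin constant gene symbols sought was found among the gene rows, so these genes could not be analysed.

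Among the 10 genes of B cell receptor signalling, 1 passed with either hairpin and none was called. None of 16 interferon response genes passed. Their sum in germ cells was 6.31 CPM with hairpin 1, 6.97 CPM with hairpin 2 and 6.08 CPM in the control, and in leukocyte-like cells 1416.3, 415.3 and 1141.8 CPM.

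Of the 10 Ly6 family genes, 2 passed with hairpin 1 and 3 with hairpin 2, where 1 was higher. Ly6e, a relative of Ly6a, was that gene, at 34.4 CPM over all cells with hairpin 2 and 4.21 CPM in the control. At that control level, passing the filter already required an at least 2-fold higher level. Of the 6 lysozyme family genes, 5 passed and none was called with either hairpin. Spaca3, a lysozyme-like protein of the sperm acrosome, was at 379.4 CPM in germ cells with hairpin 1, 399.1 CPM with hairpin 2 and 376.5 CPM in the control.

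Over 45 sums of cells by cluster and library, and among 7707 genes, the genes most like each listed gene were mostly other immune genes. Pearson correlations of log2(CPM + 1) were 0.889 between Jchain and Cd69, 0.961 between Mzb1 and Cd69, and 0.847 between Slpi and Ptprcap. They were 0.978 between Ly6a and Cd74, 0.959 between Cd52 and Arhgdib, 0.960 between B2m and H2-D1, and 0.983 between Cd74 and H2-Aa. For Cd79a the closest gene was Cd79b (0.951) and for Lyz2 it was Ccl7 (0.955). These sums share libraries and depth, so the values describe likeness only.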

How the data were processed

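The deposited tables held natural log (ln) values, each of which matched the natural log of a UMI count scaled by the authors to 10000 UMIs per cell, plus 1. Cell Ranger 1.3.1, Seurat 2.0.0 and the mm10 build appear in the submitters' processing notes. The sources used here name neither the annotation and strand used in counting nor how cells were filtered. The kit, per the labels' protocols, was a 10x Genomics 3' kit, version 2, used on sorted RFP-positive cells. Whole UMIs were recovered for 100.0% of 20140203 non-zero values (within 0.01) and were summed, in place of the deposited log values.

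The 10 genes and all lists were chosen with earlier results of these data known. Knockdown columns were matched to hairpin 1 and hairpin 2 by their last digit alone. Clustering used scanpy 1.11.5, 2000 variable genes without the 10 genes, 30 principal components, 15 neighbours and Leiden resolution 0.8 (leidenalg 0.10.2). A cluster needed 3 markers raised 1.5-fold to be named and took the list of highest mean log2 fold, with scoring set after the data had been seen. Where a somatic list led and at least 50% of a germ list was raised, the cluster was kept as mixed. A scanpy doublet caller marked 7, 2 and 8 cells of the hairpin 1, hairpin 2 and control libraries (0.404%, 0.107% and 0.564%), so it is taken not to have worked. The cells were kept.

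A gene was compared at a mean of at least 10 CPM and at least 30 UMIs, with folds of CPM + 1. No test was run, since each group was 1 library. Named genes were the 10 genes, Gm4665 as the check, the 3 genes most like each of them, and up to 4 genes of highest UMIs per list. Not all are printed. Gene positions came from GENCODE vM21, promoters from RefSeq (found for 6 of the 10 genes), and near-identical transcripts (95% over at least 90 bases) from blastn 2.17.0. The fold calculation was tested on simulated data. Intervals came from scipy 1.17.1 in Python 3.11.15, and figures from matplotlib 3.10.9.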

Additional observations from a re-analysis of the deposited data

How the results depend on the processing

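No paired analysis was possible because each group has 1 library. No direction of a called value reversed under any alternative run. The counts of genes at least 2-fold higher were 113 and 550 over all cells with hairpin 1 and hairpin 2, and 80 and 312 in germ cells. They changed to 39, 155, 34 and 48 with median-of-ratios factors, to 39, 182, 31 and 53 with TMM factors, to 394, 1523, 205 and 704 with no low-value filter, to 28, 131, 14 and 77 at a mean of at least 50 CPM, to 59, 339, 38 and 137 with a pseudocount of 5 CPM, to 190, 939, 136 and 627 after thinning to 10000 UMIs, to 2, 16, 2 and 9 with the mean of the deposited ln values, and to 58, 173, 33 and 41 with germ classes given the control's weights. Without leukocyte-like cells the count over all cells with hairpin 2 was 342. Without germ cells that held a pan-leukocyte UMI the germ count with hairpin 1 was 35. Of the called genes, 51.8%, 77.4%, 43.2% and 68.3% were higher by total UMIs, but 11.8%, 17.4%, 13.6% and 7.77% with median-of-ratios factors and 11.7%, 22.4%, 12% and 8.97% with TMM factors. Those scalings moved the median of all genes to between -0.15 and -0.01.

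Among the 10 genes, the 8 called over all cells with hairpin 1 became 3 at a mean of at least 50 CPM, 0 with ln means and 0 without leukocyte-like cells. The 8 called with hairpin 2 became 0 with ln means and 3 without leukocyte-like cells. The germ count of 0 with hairpin 1 became 2 with no filter, and that of 2 with hairpin 2 became 9 with no filter, 1 at a mean of at least 50 CPM and 0 with ln means. The ln means kept the same genes and cells but used another measure. On a mean of ln values, a gene held by few cells or at low counts can hardly reach the 2-fold limit. For the other changes the cause was not tested, beyond the smaller or larger number of genes and cells that each alternative keeps. Of 540 log2 folds of single genes under alternatives, 238 stayed inside the counting interval. After thinning, which drops shallow cells, the log2 folds that changed sign were those of Lyz2 over all cells with hairpin 2 (-0.72), and of Ly6a (-0.06) and H2-Aa (-0.05) in germ cells with hairpin 1. The germ cell fold of B2m with hairpin 1 was -0.04 without cells that held a pan-leukocyte UMI. None of these 4 folds had been called. Other clusterings (listed genes kept, Leiden resolution 0.4 and 1.2) gave 92 to 96, 179 to 183 and 19 to 21 leukocyte-like cells in the hairpin 1, hairpin 2 and control libraries. Leukocyte-like cells held at least 76% of the UMIs of each gene in every library under the 6 alternatives run for it. The settings on cells of 20 or more Jchain UMIs, mixed clusters and leukocyte-like cells left out were chosen after seeing the data. Depth limits Slpi, Cd79a, Ly6a and Lyz2 in germ cells most, where the control had 0, 7, 6 and 4 UMIs.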
